A study of Homo sapiens with 6 samples.

Results

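The 35 genes described here encode proteins of the endoplasmic reticulum (ER) that fold newly made proteins or remove those that fail to fold. They were chosen by function, with earlier results of these data known, and matched by symbol to the deposited tables. All 35 were among the 26255 gene symbols of the files and among the 12203 genes with a mean level of at least 1 FPKM that were tested. FPKM are reads per kilobase of transcript, scaled to the mapped reads of the library, so levels of different genes can be compared. Of the 35 genes, 22 act in folding and 13 in ER-associated degradation (ERAD).

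The libraries came from HCT116, a human colorectal cancer cell line. There were 3 groups of 2 libraries each, namely parent cells, cells with siLINC01534-1 and cells with siLINC01534-2, a pair of small interfering RNAs (siRNAs) against the long noncoding RNA LINC01534. The siRNAs were transfected with a lipid reagent, whereas no transfection is described for the parent cells, so the effects of transfection and of the siRNA cannot be told apart. None of the 6 libraries is labelled as coming from cells given a control siRNA. The time between transfection and RNA extraction for these libraries is not given in the sources used here, and the labels do not say whether the 2 libraries of a group came from separate cultures. The study's methods speak of 3 cultures, without saying how these relate to the 2 libraries of each group. If the libraries did not come from separate cultures, the p-values measure only technical spread.

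Proteins enter the ER unfolded. Chaperones of the HSP70 and HSP90 families and their J-domain helpers hold them, lectin chaperones bind their sugar chains, disulfide isomerases set their disulfide bonds and prolyl isomerases turn their proline bonds. Chains that do not fold lose mannose residues, are recognised by ER lectins, and are passed through the SEL1L-SYVN1 ubiquitin ligase to the cytosolic ATPase p97, which hands them to the proteasome. When unfolded proteins build up, the sensors IRE1, PERK and ATF6 raise the transcription of many of these genes, a programme called the unfolded protein response. The ER stress element (ERSE) is the promoter sequence through which ATF6, together with NF-Y, is known to act.

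The promoters of the genes were searched for 4 such elements in both strands. RefSeq windows (GRCh38.p14) from 250 bases before to 50 bases after the gene start were at hand for 32 of the 35 genes, 20 of folding and 12 of degradation. The ERSE, which is CCAAT, any 9 bases and CCACG, was in the windows of 5 of these 32 genes (15.6%) and of 0.167% of the 9009 tested genes with a window. The ERSE-II, which is ATTGG, any base and CCACG, was in those of 2 of the 32 genes (6.25%) and of 0.144% of the tested genes. The other elements were the core of the unfolded protein response element (UPRE), TGACGTGG, in 4 of the 32 genes (12.5%, against 1.28% of tested genes), and the C/EBP-ATF element TGATGNAA in 1 gene (3.12%, against 2.42%). The CCACG of the ERSE and ERSE-II, read on the other strand, is also the end of the UPRE core. A match of letters is a description and not evidence of binding. The sequences with an ERSE or ERSE-II are shown because 6 of these 7 genes are folding genes and their changes, given further on, differed widely. They read 5′ to 3′ on the strand of the gene, and capitals mark the fixed letters of the element.
HSP90B1, first site, chr12:103930201-103930249, plus strand: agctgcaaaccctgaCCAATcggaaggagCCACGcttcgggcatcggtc
HSP90B1, second site, chr12:103930306-103930354, plus strand: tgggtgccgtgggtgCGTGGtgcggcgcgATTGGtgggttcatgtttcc
CALR, chr19:12938369-12938417, plus strand: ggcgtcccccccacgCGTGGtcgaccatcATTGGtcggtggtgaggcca
CANX, chr5:179698763-179698811, plus strand: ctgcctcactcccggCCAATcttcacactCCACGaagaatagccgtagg
CRELD2, chr22:49918539-49918587, plus strand: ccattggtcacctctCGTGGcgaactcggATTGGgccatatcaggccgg
PDIA6, chr2:10812838-10812886, minus strand: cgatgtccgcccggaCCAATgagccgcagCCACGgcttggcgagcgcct
HERPUD1 (ERSE-II), chr16:56932010-56932050, plus strand: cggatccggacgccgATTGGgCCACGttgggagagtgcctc
SDF2L1 (ERSE-II), chr22:21642099-21642139, plus strand: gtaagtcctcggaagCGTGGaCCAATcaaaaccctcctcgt
The second site of HSP90B1 and the sites of CALR, CRELD2 and SDF2L1 lie on the opposite strand to the gene, so their letters appear reversed and complemented. HSP90B1 was the member with 2 ERSE sites in its window. The first base of the element lay at positions -225 to -80 from the start of these genes, as the map of the elements shows. For CANX, whose table lists several starts, the distance is given from the start of the first listed window that holds the site. The UPRE core was in the windows of DNAJC10, TXNDC5, TXNDC11 and UBE2J1, and the C/EBP-ATF element in that of HERPUD1.

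**Figure D1:**
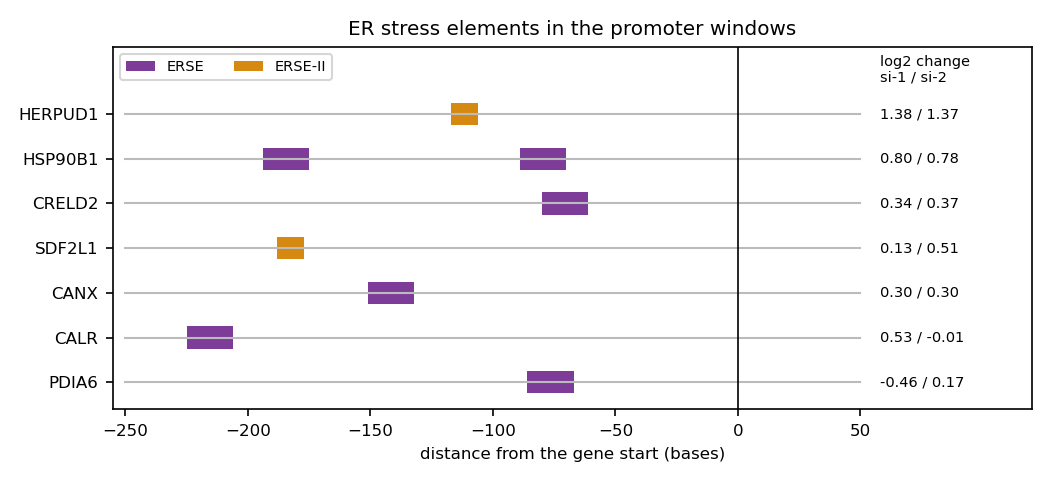
Positions of the ERSE and ERSE-II in the promoter windows of 7 genes, in bases from the gene start at 0, with the log2 fold change against parent for siLINC01534-1 and siLINC01534-2 at the right. HERPUD1, with 1 ERSE-II, changed by 1.38 and 1.37, whereas PDIA6, with 1 ERSE, changed by -0.46 and 0.17.

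Each library held an estimated 8680000 to 10400000 reads, read from the spacing of low FPKM values, so that 1 FPKM stands for 8.68 to 10.4 reads per kilobase of transcript. LINC01534 itself was at 0.285 and 0.571 FPKM in parent, at 0 and 0.283 with siLINC01534-1, and at 0.660 and 0.551 with siLINC01534-2. At this depth these values rest on few reads, the parent libraries themselves differed widely, and the knockdown is not settled by them in either direction. Groups carry their label names throughout. The epithelial markers EPCAM, KRT8 and KRT18 were high in all 6 libraries (EPCAM at 199 to 204 FPKM), although VIL1 was listed at 0 in 5 of them and KRT20 was at 0.211 to 1.12 FPKM. KRT8 was at 1690 and 1730 FPKM in parent, at 1350 and 1340 with siLINC01534-1 and at 1690 and 1560 with siLINC01534-2. The summed level of 7 epithelial markers was 2910 to 2960 FPKM in parent, 2440 to 2450 with siLINC01534-1 and 2710 to 2870 with siLINC01534-2, mostly from KRT8 and KRT18. CDH1 was at 23.6 FPKM in both parent libraries, at 26.9 and 23.5 with siLINC01534-1 and at 34.1 and 36.9 with siLINC01534-2. CDX2 was between 6.89 and 9.89 FPKM in the 6 libraries. Of 8 markers of other cell types, 5 were under 1 FPKM in each group, and PTPRC, CD3E and PECAM1 were at or near 0. The summed level of these 8 was 9.7 to 10.8 FPKM in parent, 16.5 to 18.6 with siLINC01534-1 and 13.3 to 14.1 with siLINC01534-2, mostly from COL1A1, ACTA2 and CD68. The part of either sum in the results was not tested.

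In parent cells the folding genes among the 35 were expressed far above the degradation genes among them. The median level over the 22 folding genes was 90.8 and 89.4 FPKM in the parent libraries, and that over the 13 degradation genes was 16.4 and 15.1 FPKM. CALR was the highest of the 35 at a mean of 582 FPKM and FKBP14 the lowest at 4.54 FPKM. By their parent level, 12 of the 22 folding genes and 0 of the 13 degradation genes were in the top 10% of the genes tested, with median percentiles of 91.2 and 57.7. The highest of the 13 degradation genes, OS9, had a mean of 44.8 FPKM, below the median of the 22 folding genes. The plot of FPKM by library shows this order. A wider list of 59 ER folding and degradation genes, described further on, was not compared in this way. Among its tested genes, the degradation genes VCP (121 FPKM) and AUP1 (116 FPKM) were in the top 10% in parent. Its tested folding genes ran from 1.04 FPKM (ERO1B) to 254 FPKM (HSPA5).

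**Figure D2:**
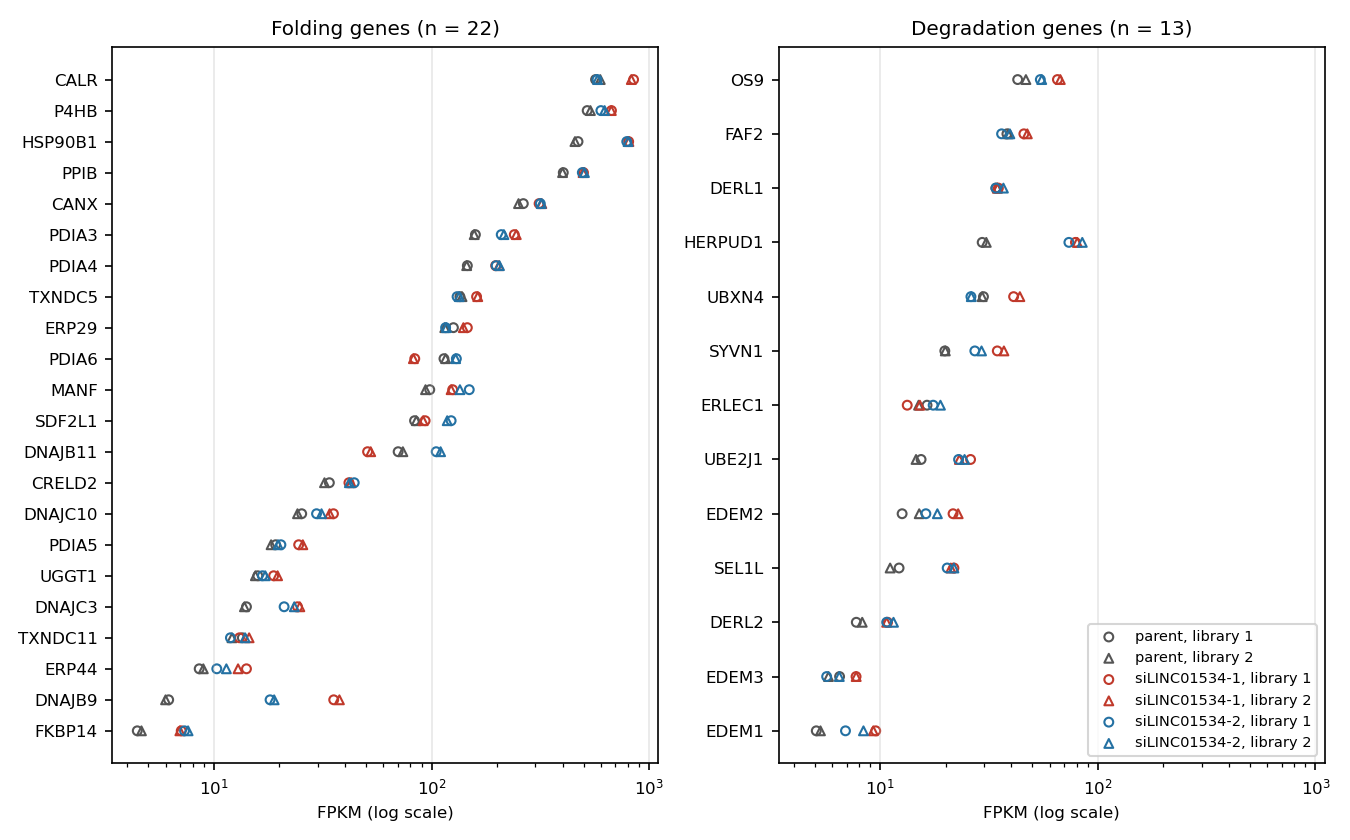
FPKM on a log axis of the 22 folding genes (left) and the 13 degradation genes (right) in each of the 6 libraries, ordered by parent level. Circles and triangles are the 2 libraries of a group, and for 24 of the 35 genes the 4 siRNA libraries all lie to the right of both parent libraries.

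Most genes of both classes rose in the siLINC01534 cells. With both siRNAs averaged and set against parent, 27 of the 35 genes were higher (77.1%) at an adjusted p under 0.05 in limma, and 1, PDIA6, was lower. Of all 12203 genes tested, 17.1% were higher and 20.1% lower by the same rule. The p-value of the average does not measure how far the siRNAs differed from each other. Of the 27, 21 were higher with each siRNA, while with siLINC01534-2 UBXN4 was at -0.17, TXNDC5 at -0.046 and CALR at -0.0095. PDIA6 was higher with siLINC01534-2 (0.17). Among the folding genes 18 of 22 were higher and 1 was lower, and among the degradation genes 9 of 13 were higher and 0 were lower. The median log2 fold change was 0.31 over the folding genes and 0.42 over the degradation genes, beside -0.0068 over all genes tested. The ranges overlapped widely, from -0.14 to 1.93 and from 0.03 to 1.37. With DNAJB9, DNAJC10 and TXNDC11 counted as degradation genes, the medians were 0.31 for folding and 0.41 for degradation. The ranges were then -0.14 to 0.79 and 0.03 to 1.93. In such bulk samples, a change in the share of cells in a given state and a change of RNA per cell cannot be told apart. The genes are not replicates, so no test was made between the classes.

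The groups did not overlap for most genes. In 24 of the 35, 16 of folding and 8 of degradation, the 4 siRNA libraries all lay above both parent libraries, against 19.0% of all genes tested, and in 0 of the 35 did they all lie below, against 19.3%. Replicates were close, since the 2 libraries of a group differed by a median over the 35 genes of 4.53% in parent, 2.92% with siLINC01534-1 and 4.72% with siLINC01534-2. For 487 to 498 genes with 1 annotated transcript, the squared difference of the 2 libraries was compared with counting noise on estimated reads. It was on average 1.48 to 1.54 times what that noise alone would give. If the 2 libraries share a culture, the spread between cultures cannot be read from them. With each library left out in turn, 22 of the 28 calls were kept each time. The calls of UGGT1, PDIA5, PDIA6, TXNDC5, EDEM2 and UBXN4 were lost at least once, that of UGGT1 without either parent library (adjusted p = 0.068 and 0.10) and that of UBXN4 without either parent library (0.095 and 0.12) or either siLINC01534-2 library (0.056 and 0.059). EDEM2 lost its call without parent library 1 (0.054), PDIA5 (0.059) and PDIA6 (0.071) without parent library 2, PDIA6 also under quantile normalization (0.11), and TXNDC5 whichever library was left out (0.068 to 0.19).

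When the 4 siRNA libraries were fitted without a term for which siRNA was used, limma gave 13 higher genes of the 35, where 2.14% of all tested genes were higher. Of the 13, 9 were folding genes, namely HSP90B1, CRELD2, DNAJB9, DNAJC3, CANX, PDIA3, PDIA4, FKBP14 and PPIB. The 4 degradation genes were SEL1L, HERPUD1, DERL2 and UBE2J1. The smallest adjusted p-values among them were those of HERPUD1 (8.0e-04) and HSP90B1 (9.1e-04), by limma over all genes tested.

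**Figure D3:**
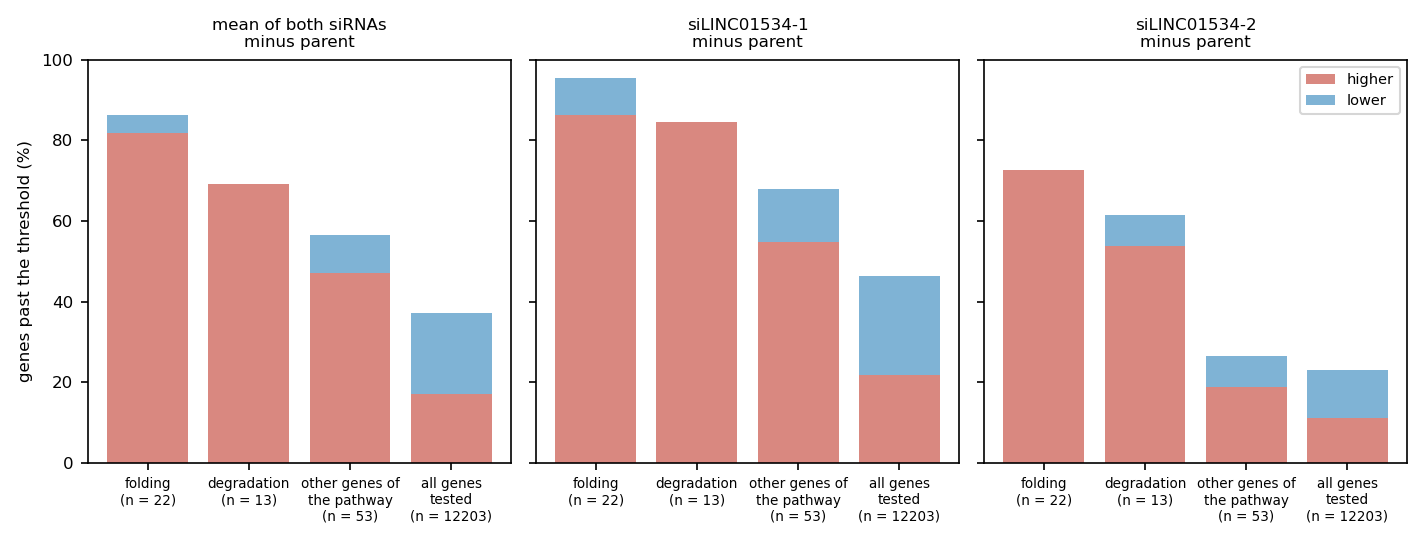
Share of genes past the threshold (adjusted p under 0.05 in limma), higher in red and lower in blue, for the folding genes, the degradation genes, 53 other genes of the pathway and all 12203 genes tested, in each comparison with parent. With both siRNAs averaged, 81.8% of the folding and 69.2% of the degradation genes were higher, beside 17.1% of all genes tested.

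More of the genes passed the threshold with siLINC01534-1 than with siLINC01534-2. With siLINC01534-1, 30 of the 35 genes were higher and 2 lower, beside 21.8% and 24.5% of all genes. With siLINC01534-2, 23 were higher and 1 was lower, beside 11.1% and 11.8%. The folding genes had a median log2 fold change of 0.36 and 0.31 with siLINC01534-1 and siLINC01534-2, and the degradation genes one of 0.55 and 0.30. The summed level of the 22 folding genes was 3300 FPKM in both parent libraries, 4450 and 4440 with siLINC01534-1, and 4110 and 4170 with siLINC01534-2. That of the 13 degradation genes was 270 and 275 FPKM in parent, rising to 411 and 420 with siLINC01534-1 and to 352 and 381 with siLINC01534-2. The sums were thus 1.35 and 1.26 times the parent value for folding and 1.52 and 1.34 times for degradation. These comparisons share the parent libraries. The number of degradation genes higher with siLINC01534-2, 7, was 4 without parent library 1 and also 4 without siLINC01534-2 library 2.

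A set of 21 genes was higher with each siRNA, 14 of folding and 7 of degradation, beside 6.99% of all genes tested. The set was smaller whichever library was left out. Another 8 were higher with siLINC01534-1 alone past the threshold, namely CALR, UGGT1, PDIA5, ERP29, TXNDC5, EDEM2, EDEM3 and FAF2, beside 13.9% of all genes. That count was 13 without parent library 1 and 15 without siLINC01534-2 library 2. All 8 also differed in the direct comparison of the siRNAs given further on. There UGGT1, ERP29, EDEM2, EDEM3 and FAF2 lost the call without at least 1 library, while CALR, PDIA5 and TXNDC5 kept it. There were 3 genes that moved in opposite directions past the threshold, DNAJB11, PDIA6 and UBXN4, beside 2.12% of all genes. DNAJB11 alone did so without either parent library or either siLINC01534-2 library, and DNAJB11 and PDIA6 did without siLINC01534-1 library 2. TXNDC11, ERLEC1 and DERL1 passed the threshold with neither siRNA. The plot of changes by role shows each gene.

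**Figure D4:**
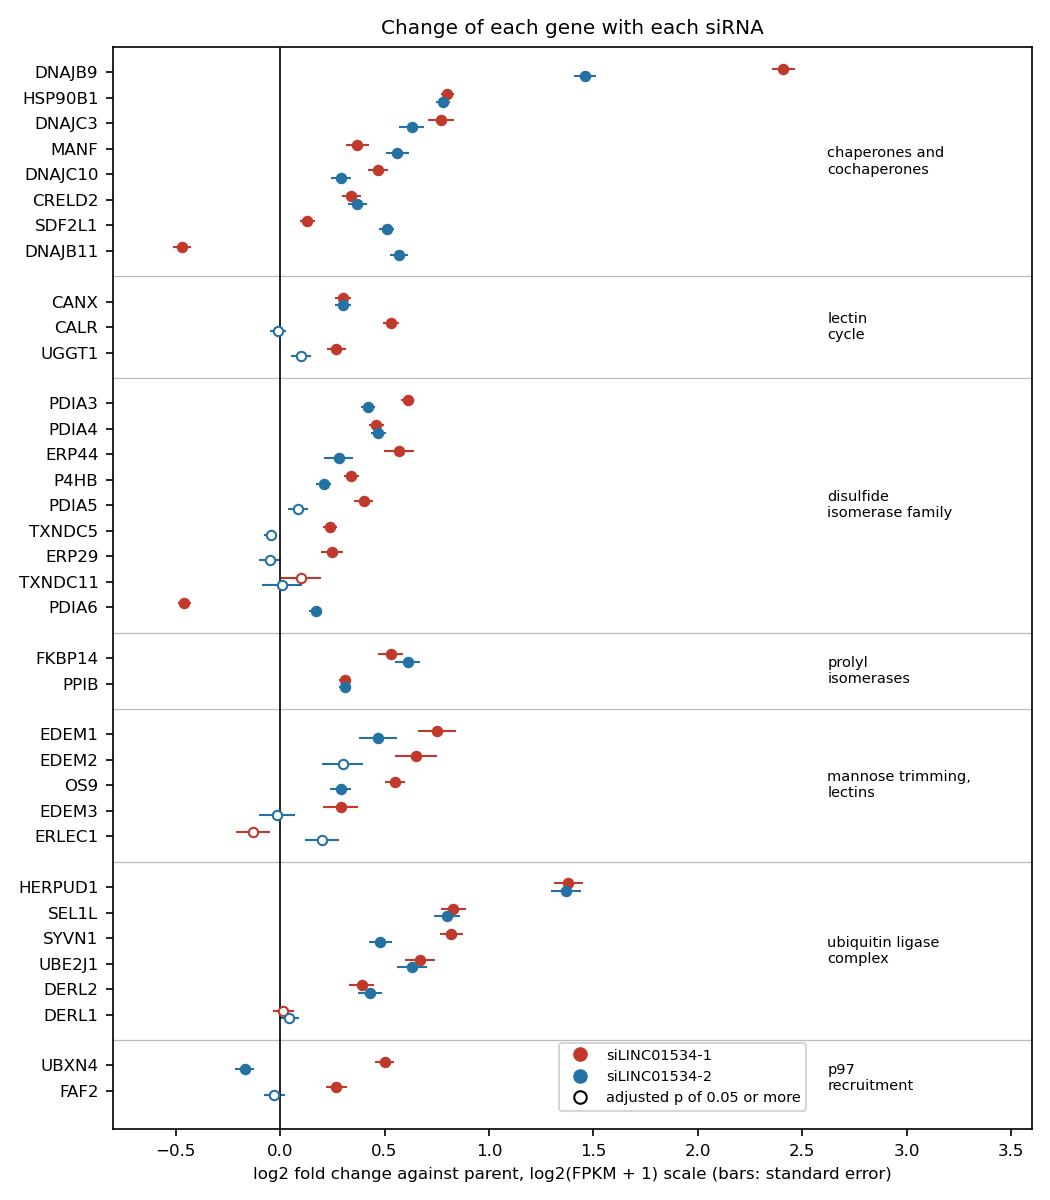
Log2 fold change against parent on the log2(FPKM + 1) scale for each gene, by role, with siLINC01534-1 in red and siLINC01534-2 in blue. Bars are standard errors from limma and open points did not pass the threshold, and DNAJB9 stands farthest to the right at 2.41 and 1.46.

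Among the chaperones, HSP90B1, the HSP90 of the ER, was at 471 and 456 FPKM in parent, at 805 and 807 with siLINC01534-1 and at 789 and 800 with siLINC01534-2. All 4 siRNA libraries lay far above both parent libraries. The ratio of means was 1.74 and 1.71, and the log2 fold change for both siRNAs was 0.79 (standard error 0.028, adjusted p = 1.1e-04). The siRNAs did not differ past the threshold (log2 difference 0.021, standard error 0.032). HSP90B1 lies on chromosome 12 of GRCh37 from 104323885 to 104347709.

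The J-domain proteins, which deliver clients to the HSP70 of the ER and stimulate its ATPase, gave the largest increase of the 35 genes and the largest difference between the siRNAs. DNAJB9, also known as ERdj4, was at 6.19 and 5.99 FPKM in parent, at 35.5 and 37.7 with siLINC01534-1 and at 18.1 and 18.9 with siLINC01534-2. It was the most changed of the 35 genes, 6-fold and 3.04-fold higher, and the siRNAs differed from each other by 0.94 on the log2 scale (standard error 0.053, adjusted p = 2.7e-04). DNAJB9 lies on chromosome 7 of GRCh37 from 108210311 to 108215294. DNAJB11, or ERdj3, was at 70.2 and 73.8 FPKM in parent. It fell to 50.8 and 52.5 with siLINC01534-1 and rose to 105 and 110 with siLINC01534-2, so that the 3 groups did not overlap. The log2 fold change was -0.47 (adjusted p = 7.9e-04) and 0.57 (adjusted p = 0.0017), and the difference between the siRNAs was -1.04 (standard error 0.044, adjusted p = 1.2e-04). Averaged over both siRNAs, its log2 fold change was 0.051 (adjusted p = 0.34).

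DNAJC3, which also inhibits the kinase PERK, rose from 14.1 and 13.8 FPKM to 24.2 and 24.8 with siLINC01534-1 and to 21.0 and 23.4 with siLINC01534-2. DNAJC10, a J-domain protein that reduces disulfide bonds of ERAD clients, rose from 25.3 and 24.2 FPKM to 35.4 and 34.0 with siLINC01534-1 and to 29.6 and 31.2 with siLINC01534-2. Its call with siLINC01534-2 (adjusted p = 0.014) was lost without either parent library (0.054 and 0.076) or without siLINC01534-2 library 2 (0.072).

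SDF2L1, a partner of the ER J-domain proteins, and MANF, a secreted ER protein that binds HSP70, were higher with siLINC01534-2 than with siLINC01534-1, MANF less firmly. SDF2L1 was at 83.5 and 85.1 FPKM in parent, at 93.4 and 91.5 with siLINC01534-1 and at 123 and 118 with siLINC01534-2. The difference between the siRNAs was -0.37 on the log2 scale (adjusted p = 0.0012). Its rise of 0.13 with siLINC01534-1 (adjusted p = 0.032) did not pass when any parent or siLINC01534-1 library was left out (0.079 to 0.12). MANF was at 98.1 and 93.8 FPKM in parent, at 125 and 123 with siLINC01534-1 and at 149 and 135 with siLINC01534-2. Its difference of -0.19 (adjusted p = 0.04) was lost without any single library (0.06 to 0.15) other than siLINC01534-2 library 2. CRELD2, an ER protein that rises under ER stress, was at 33.9 and 32.2 FPKM in parent and between 41.7 and 44.1 in the siRNA libraries, with no difference past the threshold between the siRNAs.

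In the lectin cycle, calnexin (CANX, membrane-bound) and calreticulin (CALR, soluble) bind the same monoglucosylated sugar chains. CANX was at 264 and 251 FPKM in parent, at 312 and 321 with siLINC01534-1 and at 316 and 319 with siLINC01534-2, a ratio of 1.23 with each. CALR was at 567 and 596 FPKM in parent, at 848 and 828 with siLINC01534-1 and at 576 and 579 with siLINC01534-2. The siLINC01534-2 libraries thus lay between the parent libraries, while the siLINC01534-1 libraries lay above both. The log2 fold change of CALR was 0.53 with siLINC01534-1 (adjusted p = 3.3e-04) and -0.0095 with siLINC01534-2 (standard error 0.037, adjusted p = 0.88), and the siRNAs differed by 0.54 (adjusted p = 4.2e-04). UGGT1, which puts a glucose back on misfolded chains so that the lectins bind them again, was at 15.9 and 15.5 FPKM in parent, at 18.8 and 19.6 with siLINC01534-1 and at 16.7 and 17.2 with siLINC01534-2. It passed the threshold with siLINC01534-1 (0.27) and not with siLINC01534-2 (0.10, adjusted p = 0.17).

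Of the 9 chosen genes of the disulfide isomerase family, averaging both siRNAs gave 6 that were higher and 1 that was lower. The count does not cover thioredoxin-related genes of the wider list. By the same average TMX2 was lower (-0.15). TMX1 (0.12), TMX3 (0.21), TMX4 (-0.16) and TXNDC12 (-0.1) did not pass the threshold. PDIA3, the isomerase that works with the lectin chaperones, rose from 159 and 157 FPKM to 240 and 245 with siLINC01534-1 and to 209 and 215 with siLINC01534-2. PDIA4 rose by the same ratio of 1.38 with each siRNA, from 146 and 145 FPKM to between 197 and 205. P4HB, the founding protein disulfide isomerase, was at 519 and 537 FPKM in parent, at 671 and 670 with siLINC01534-1 and at 600 and 624 with siLINC01534-2. Its siRNA libraries were all above parent, by 1.27 and 1.16 times. The call of P4HB with siLINC01534-2 (adjusted p = 0.015) was lost without parent library 1 or siLINC01534-2 library 2 (0.072 each).

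PDIA6 went the other way with siLINC01534-1. It was at 114 and 116 FPKM in parent, at 83.7 and 82.5 with siLINC01534-1 and at 130 and 129 with siLINC01534-2. The groups did not overlap. The log2 fold change was -0.46 (standard error 0.031, adjusted p = 2.8e-04) with siLINC01534-1 and 0.17 (adjusted p = 0.016) with siLINC01534-2, and the siRNAs differed by -0.63 (adjusted p = 1.9e-04). The smaller rise with siLINC01534-2 did not pass without any single parent or siLINC01534-2 library (0.062 to 0.077). PDIA6 lies on the minus strand of chromosome 2 of GRCh37 from 10923517 to 10978103, and its promoter window holds an ERSE, as shown above.

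Of the remaining 5 chosen genes of the family, 4 were higher with siLINC01534-1 than with siLINC01534-2. ERP44, which retains unassembled secretory proteins in the early secretory pathway, was at 8.55 and 8.93 FPKM in parent, at 14.1 and 12.9 with siLINC01534-1 and at 10.3 and 11.4 with siLINC01534-2. PDIA5 was at 19.2 and 18.3 FPKM in parent, at 24.5 and 25.6 with siLINC01534-1 and at 20.3 and 19.7 with siLINC01534-2. TXNDC5 was at 135 and 138 FPKM in parent, at 161 and 163 with siLINC01534-1 and at 131 and 134 with siLINC01534-2. ERP29, which has the thioredoxin fold without the active cysteines, was at 126 and 115 FPKM in parent, at 146 and 140 with siLINC01534-1 and at 116 and 117 with siLINC01534-2. PDIA5, TXNDC5 and ERP29 passed the threshold with siLINC01534-1 (0.40, 0.24 and 0.25) and not with siLINC01534-2 (0.087, -0.046 and -0.048). The call of ERP29 was lost without siLINC01534-1 library 1 (adjusted p = 0.073). ERP44 passed with siLINC01534-2 at an adjusted p of 0.042, which rose to between 0.062 and 0.16 with each library left out. TXNDC11 was between 11.9 and 14.5 FPKM in all 6 libraries, and its groups overlapped.

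Both prolyl isomerases among the chosen genes were higher with each siRNA. The related genes of the wider list did not follow them. FKBP2, FKBP7, FKBP9, FKBP10 and FKBP11 passed the threshold against parent with neither siRNA. PPIC passed it with siLINC01534-1 (0.56) and not with siLINC01534-2 (-0.042). PPIB, cyclophilin B, was at 403 and 400 FPKM in parent and between 493 and 504 in the siRNA libraries. FKBP14 was at 4.44 and 4.64 FPKM in parent, at 7.07 and 6.97 with siLINC01534-1 and at 7.32 and 7.60 with siLINC01534-2, or 1.55 and 1.64 times parent. The difference between the siRNAs was -0.0024 (standard error 0.030) for PPIB and -0.076 (standard error 0.059) for FKBP14.

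On the degradation side, 5 of the 6 genes of the membrane ubiquitin ligase complex rose with each siRNA. HERPUD1, which helps assemble the complex, was at 29.4 and 30.7 FPKM in parent, at 78.9 and 80.4 with siLINC01534-1 and at 73.6 and 84.8 with siLINC01534-2. The siRNA groups overlapped each other and stood far above parent, at 2.65 and 2.63 times. The log2 fold change for both was 1.37 (standard error 0.061, adjusted p = 1.9e-04), which placed it after DNAJB9 among the 35 genes. HERPUD1 lies on chromosome 16 of GRCh37 from 56966054 to 56978776. SEL1L, the adaptor of the ligase, was at 12.2 and 11.1 FPKM in parent, at 21.8 and 21.1 with siLINC01534-1 and at 20.3 and 21.8 with siLINC01534-2. SYVN1, the ligase HRD1 itself, was at 19.8 and 19.9 FPKM in parent, at 34.5 and 37 with siLINC01534-1 and at 27.2 and 29.2 with siLINC01534-2, and it differed between the siRNAs by 0.33 (adjusted p = 0.0065).

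UBE2J1, the ubiquitin-conjugating enzyme of the ER membrane, rose from 15.4 and 14.6 FPKM to 26.0 and 23.1 with siLINC01534-1 and to 22.9 and 24.4 with siLINC01534-2. The derlins, rhomboid-like proteins of the retrotranslocation channel, gave different values. DERL2 was at 7.76 and 8.26 FPKM in parent and between 10.7 and 11.5 in the siRNA libraries. DERL1 was at 34.0 and 34.6 FPKM in parent and between 34.0 and 36.8 in the siRNA libraries, and changed by 0.030 on the log2 scale (standard error 0.042), short of the threshold. DERL2 passed the threshold with siLINC01534-2 (adjusted p = 0.008) but not without parent library 1 (0.052) or siLINC01534-2 library 2 (0.051). Of the 6 genes of the complex, 5 passed the threshold with each siRNA, DERL1 being the exception, and SYVN1 was the gene called different between the siRNAs.

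The genes of mannose trimming and lectin recognition changed less evenly. EDEM1, EDEM2 and EDEM3 trim mannose from misfolded glycoproteins. EDEM1 was at 5.08 and 5.31 FPKM in parent, at 9.53 and 9.29 with siLINC01534-1 and at 6.92 and 8.37 with siLINC01534-2, or 1.81 and 1.47 times parent. EDEM2 was at 12.6 and 15.1 FPKM in parent, at 21.6 and 22.8 with siLINC01534-1 and at 16.2 and 18.3 with siLINC01534-2, so all 4 siRNA libraries were above parent, although siLINC01534-2 alone did not pass (0.30, adjusted p = 0.083). EDEM3 was at 6.5 and 5.78 FPKM in parent, at 7.74 and 7.75 with siLINC01534-1 and at 5.67 and 6.48 with siLINC01534-2, and its siLINC01534-2 libraries overlapped those of parent. Its call with siLINC01534-1 (0.29, adjusted p = 0.036) was lost without any single parent or siLINC01534-1 library (0.052 to 0.16). EDEM1 lost its call with siLINC01534-2 (adjusted p = 0.02) without either parent library (0.10 and 0.080), without siLINC01534-1 library 1 (0.052) or without siLINC01534-2 library 2 (0.061).

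The lectins OS9 and ERLEC1 bring trimmed glycoproteins to SEL1L. OS9 rose from 42.8 and 46.7 FPKM to 65.2 and 67.2 with siLINC01534-1 and to 54.4 and 55.2 with siLINC01534-2. The latter call (adjusted p = 0.016) was lost without parent library 1 (0.060) or either siLINC01534-2 library (0.068 and 0.080). ERLEC1 was at 16.4 and 15 FPKM in parent, at 13.3 and 15.2 with siLINC01534-1 and at 17.5 and 18.9 with siLINC01534-2. It passed with neither siRNA (-0.13 and 0.20), and the siRNAs differed by -0.33 (adjusted p = 0.025). That difference was lost without siLINC01534-1 library 1 (0.11) or either siLINC01534-2 library (0.058 and 0.11).

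FAF2 and UBXN4, membrane proteins that recruit p97 to the ER, were higher with siLINC01534-1 and not with siLINC01534-2. UBXN4 was at 29.8 and 29.4 FPKM in parent, at 41.0 and 43.8 with siLINC01534-1 and at 26.1 and 26.2 with siLINC01534-2. The groups did not overlap. The log2 fold change was 0.50 (adjusted p = 7.1e-04) and -0.17 (adjusted p = 0.047), and the siRNAs differed by 0.68 (adjusted p = 3.9e-04). The fall with siLINC01534-2 did not pass without 5 of the 6 libraries in turn, siLINC01534-1 library 1 being the exception, with adjusted p-values from 0.05 to 0.16. FAF2 was at 38.2 and 38.7 FPKM in parent, at 45.7 and 47.4 with siLINC01534-1 and at 36.1 and 39.4 with siLINC01534-2. Its rise of 0.27 with siLINC01534-1 (adjusted p = 0.0097) was lost without parent library 1 (0.053) or siLINC01534-1 library 2 (0.056).

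Compared directly, siLINC01534-1 and siLINC01534-2 differed in 21 of the 35 genes, where 41.8% of all genes tested differed. With siLINC01534-1, 16 were higher, 10 of folding and 6 of degradation, beside 19.5% of all genes tested, and 5 were lower, beside 22.3%. The 5 were DNAJB11, PDIA6, SDF2L1, MANF and ERLEC1. The call was kept with each library left out in turn for 10 genes, namely DNAJB9, DNAJB11, PDIA6, SDF2L1, CALR, PDIA3, PDIA5, TXNDC5, SYVN1 and UBXN4. The other 11 lost it without at least 1 library, with adjusted p-values from 0.05 to 0.16. The count of 21 was 12 without siLINC01534-1 library 1, 13 without siLINC01534-1 library 2 and 12 without siLINC01534-2 library 1. The 10 higher folding genes were 5 without siLINC01534-1 library 1 and 6 without siLINC01534-2 library 1, and the 6 higher degradation genes were 2 without siLINC01534-1 library 2 and 3 without siLINC01534-2 library 1. No difference past the threshold was found for 14 genes, among them HSP90B1, PDIA4, CANX, PPIB, HERPUD1, SEL1L and UBE2J1, whose log2 differences were between -0.0058 and 0.048 with standard errors of 0.030 to 0.071.

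A wider list of 59 ER folding and degradation genes, 53 of them tested, had a smaller share of genes called. With both siRNAs averaged, 25 of the 53 were higher and 5 lower (47.2% and 9.43%, beside 17.1% and 20.1% of all genes), with a median log2 fold change of 0.14. With siLINC01534-1, 29 were higher and 7 lower (54.7% and 13.2%, beside 21.8% and 24.5%), and with siLINC01534-2, 10 were higher and 4 lower (18.9% and 7.55%, beside 11.1% and 11.8% of all genes). HSPA5, the HSP70 of the ER and partner of the J-domain proteins, had a log2 fold change of 1.52 and 1.51 with the siRNAs. HYOU1, its nucleotide exchange factor, rose by 1.16 and 0.81, and SELK (SELENOK), a selenoprotein that binds p97 complexes, by 1.21 and 0.62. Among genes called lower whose 4 siRNA libraries all lay below parent, the values were -0.28 for the ubiquitin-conjugating enzyme UBE2G2, -0.28 for the collagen prolyl hydroxylase P3H1 and -0.15 for the thioredoxin-related protein TMX2, for both siRNAs. ERO1A (-0.54) and RHBDD1 (-0.20) were also called lower, but their siRNA libraries overlapped parent.

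Of these other genes, 7 more are described here, picked after their values were seen. They were p97 itself (VCP), its cofactors NPLOC4, UFD1L and UBXN6, the p97-binding VIMP (SELENOS), the oxidase ERO1A and the rhomboid protease RHBDD1. The p97-related genes did not follow a single pattern. UBXN6 passed the threshold with neither siRNA (-0.014 and 0.11), while VIMP, like SELK, rose with both (0.84 and 0.62). VCP, which encodes p97, was at 123 and 120 FPKM in parent, at 159 and 162 with siLINC01534-1 and at 114 and 108 with siLINC01534-2, with a difference between the siRNAs of 0.53 (adjusted p = 5.8e-04). NPLOC4 and UFD1L, the p97 cofactors, had log2 fold changes of 0.56 and 0.41 with siLINC01534-1 and of 0.096 and 0.046 with siLINC01534-2, neither of the latter past the threshold. ERO1A, which recharges protein disulfide isomerase, was at 23.1 and 20.8 FPKM in parent, at 8.55 and 9.72 with siLINC01534-1 and at 23.7 and 23.5 with siLINC01534-2, and it fell by 1.18 on the log2 scale with siLINC01534-1 (adjusted p = 2.7e-04). RHBDD1 had a log2 fold change of -0.51 with siLINC01534-1 and of 0.11, not past the threshold, with siLINC01534-2.

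Set beside the promoter elements, the 7 genes with an ERSE or ERSE-II did not all change alike. HSP90B1, CANX, CRELD2 and HERPUD1 rose with each siRNA, with log2 differences between the siRNAs from -0.026 to 0.021. SDF2L1 also passed the threshold with siLINC01534-1 and siLINC01534-2 (0.13 and 0.51), though the smaller rise was lost with some libraries left out. CALR rose with siLINC01534-1 alone past the threshold, and PDIA6 fell with siLINC01534-1. DNAJB9, the gene that changed most, held none of the 4 elements in its window. Only exact matches within the windows were sought, so the lack of a match does not show that a site is absent. Whether the elements had a part in these changes was not tested.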

How the data were processed

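RNA from 6 HCT116 libraries was sequenced by the authors, who deposited 1 table of FPKM per library. The submitters' processing notes name TopHat2 2.0.13, Bowtie2 2.2.3, SAMtools 0.1.19 and Cufflinks 2.2.1, and the annotation is not given in the sources used here. Groups came from the labels. FPKM were taken as log2(FPKM + 1), so fold changes of low genes are understated, and 12203 genes with a mean of at least 1 FPKM were fitted with limma 3.58.1 in R 4.3.3 (a mean per group, trend in the prior variance, Benjamini-Hochberg adjustment over all genes tested, threshold 0.05). On simulated data for both siRNAs against parent with 12203 genes, 200 genes were changed by 1 on the log2 scale. Of these 185 were recovered, and 4 unchanged genes were called. Recovery of smaller effects, such as the medians of 0.31 over the folding and 0.42 over the degradation genes, was not tested. A larger number of altered genes was not tested either. FPKM hold no counts, so depth was estimated from the steps of low values and no count model was used. In 42.7% of 3498 low genes the values came out as whole steps within 3%.

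The members, the wider gene list and the tests were chosen with earlier results of these data known. Every member was named. Of the wider list, HSPA5 was named, with the 3 largest increases and 3 largest decreases for both siRNAs past the threshold whose 4 siRNA libraries lay on 1 side of parent. Further genes of that list were named after their values were seen. Promoter windows were from RefSeq, GRCh38.p14, and gene positions from the GRCh37 annotation. Protein sequence features were not analysed here. Same-numbered libraries were checked for pairing by the correlation of their deviations from the group means (0.114, 0.027 and -0.0456). The alternatives were another pseudocount, other filters, other scaling, no trend, a replicate block, the siRNA libraries as 1 group, a different assignment of 3 genes to the classes and each library left out.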

Additional observations from a re-analysis of the deposited data

Results flagged for a closer look

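For 21 of the 35 genes the effect of siLINC01534-1 differed from that of siLINC01534-2 in a direct limma test (adjusted p under 0.05), beside 41.8% of all genes tested. With each library left out in turn, 10 of the 21 kept the call each time, and MANF, DNAJC10, UGGT1, P4HB, ERP29, ERP44, EDEM2, EDEM3, OS9, ERLEC1 and FAF2 did not. In log2 units, siLINC01534-1 minus siLINC01534-2, the folding genes that were higher with siLINC01534-1 differed by 0.94 for DNAJB9, 0.54 for CALR, 0.31 for PDIA5, 0.29 for each of ERP29, ERP44 and TXNDC5, 0.19 for each of DNAJC10 and PDIA3, 0.17 for UGGT1 and 0.13 for P4HB. The folding genes lower with siLINC01534-1 differed by -1.04 for DNAJB11, -0.63 for PDIA6, -0.37 for SDF2L1 and -0.19 for MANF. Among the degradation genes the differences were 0.68 for UBXN4, 0.35 for EDEM2, 0.33 for SYVN1, 0.31 for EDEM3, 0.30 for FAF2, 0.27 for OS9 and -0.33 for ERLEC1. DNAJB11, PDIA6 and UBXN4 moved in opposite directions past the threshold with the siRNAs, but without either parent library or either siLINC01534-2 library DNAJB11 alone did. Groups of 2 libraries are too small to look for single outlying libraries.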

How the results depend on the processing

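Over 14 alternatives, 1683 of 1855 values for single genes kept their direction and side of the threshold, 131 fell below it and 7 rose above it. The other 34 changed sign, with 0 of them past the threshold in either fit. Quantile normalization moved the median log2 fold change for both siRNAs to 0.38 over the folding and 0.47 over the degradation genes. With the siRNA libraries as 1 group, 13 genes were called in place of 28. With each library left out, 23 to 27 genes were called for both siRNAs, 29 to 32 for siLINC01534-1, 16 to 22 for siLINC01534-2 and 12 to 19 between the siRNAs. The folding median for both siRNAs was then 0.31 to 0.33 and the degradation median 0.36 (without parent library 1) to 0.48 (without parent library 2). With the replicate block 27, 30, 23 and 17 genes were called. Same-numbered libraries were not shown to be paired. The block took the calls of TXNDC5 for both siRNAs, of SDF2L1 and EDEM3 for siLINC01534-1, of ERP44 and UBXN4 for siLINC01534-2, and of DNAJC10, UGGT1, P4HB and EDEM3 between the siRNAs. The causes were not tested.

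Sign changes were near 0. Between the siRNAs, median ratio scaling gave 0.0019 for PDIA4 and 0.0015 for PPIB, and quantile normalization gave 0.026 for CRELD2, 0.052 for CANX, 0.044 for PDIA4, 0.02 for PPIB and 0.024 for DERL1. For siLINC01534-2 against parent, quantile normalization gave 0.041 for CALR and 0.0053 for TXNDC5. With each library left out, the difference between the siRNAs ran from -0.026 to 0.015 for CANX, -0.062 to 0.01 for CRELD2, -0.083 to 0.028 for DERL1, -0.081 to 0.0037 for DERL2, -0.089 to 0.11 for HERPUD1, -0.028 to 0.024 for PDIA4, -0.018 to 0.013 for PPIB, -0.019 to 0.073 for SEL1L, -0.015 to 0.2 for TXNDC11 and -0.035 to 0.13 for UBE2J1. The change with siLINC01534-2 ran from -0.045 to 0.026 for CALR, -0.012 to 0.099 for DERL1, -0.097 to 0.069 for EDEM3, -0.11 to 0.015 for ERP29, -0.087 to 0.033 for FAF2 and -0.098 to 0.12 for TXNDC11. For both siRNAs it ran from -0.025 to 0.099 for ERLEC1 and -0.015 to 0.13 for TXNDC11.

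At about 10 reads per kilobase for 1 FPKM, LINC01534, under 1 FPKM in every library, rests on few reads.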
